A study of Mus musculus with 150 samples.

Results

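Heat shock proteins and molecular chaperones were followed across 34 tissues of wild-type inbred mice through 78 probe sets for 56 genes, out of 12422 probe sets other than controls that stand for 8251 named genes. A probe set was taken when its symbol began with Hsp followed by a digit or one of the letters a to h, with Dnaja, Dnajb or Dnajc, or was one of the subunit names Cct2 to Cct8. A further 2 probe sets carried several symbols at once and are not named. By family the members comprised 3 probe sets for 2 HSP90 genes, 15 for 11 genes of the HSP70 and HSP110 group, 3 for the 2 genes of HSP60 and HSP10, 5 for 3 small heat shock proteins, and 12 for 8 subunits of the cytosolic chaperonin. The J-domain proteins comprised 3 probe sets for 3 Dnaja genes, 14 for 10 Dnajb genes and 20 for 14 Dnajc genes. Another 3 probe sets matched the rule by name only: Hspg2 encodes perlecan, a basement membrane proteoglycan, Hspbp1 a partner of HSP70, and Hspb11 a protein of the ciliary transport machinery.

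The study measured total RNA from adult mice on 150 Affymetrix MG-U74Av2 arrays, of which 148 were used. The 98 neural arrays covered 24 tissues with 3 to 7 arrays each, from strains 129, B6 and DBA, with retina from B6 alone. The 50 body arrays covered 10 tissues, each with 1 array from each of the strains 129, AJ, B6, C3H and DBA. All animals were labelled wild-type inbred, no treatment was named, age in days and sex were not given in the sources used here, and some titles join several animal codes, so that an array may hold pooled animals. The comparisons set neural tissues against body tissues, 12 telencephalic tissues (cortex, motor cortex, entorhinal cortex, perirhinal cortex, hippocampus, CA1, CA3, dentate gyrus, amygdala, BNST, striatum and olfactory bulbs) against 4 of the hindbrain and cord (pons, medulla, cerebellum and spinal cord), testes against the other 9 body tissues, heart with muscle against the other 8, heart against muscle, single tissues against the rest of their kind, and strain 129 against B6.

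Chaperones hold, fold and refold other proteins. HSP70 proteins bind exposed hydrophobic stretches of a client, J-domain proteins bring the clients and switch on the HSP70 ATPase, and HSP110 proteins reset the cycle by exchanging nucleotide. HSP90 completes the folding of kinases and receptors, the chaperonins enclose clients in a barrel, small heat shock proteins keep unfolded clients soluble, and the endoplasmic reticulum and mitochondria each have chaperones of their own. Some members, such as Hspa8, are made at all times, some, such as Hspa1a and Hspa1b, mainly after stress, and some, such as Hspa2 and Hspa1l, are known from male germ cells.

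Values are the deposited intensities, which can lie below 0. For tests they were raised to a floor of 10.4 and taken to log2, so a difference against a tissue at the floor understates the change. A member was called when limma's moderated test gave a Benjamini-Hochberg adjusted p under 0.05 over all probe sets tested and the log2 difference was at least 1, and differences are given as log2 ± SE. Probes differ in brightness, so a difference in intensity between probe sets is not read as a difference between genes. Words such as brightest only describe the sets, and marker sums are compared only between arrays. The labels do not say that arrays of a tissue came from separate animals, so p-values of fits to arrays measure the spread between arrays. For neural against body tissues and telencephalon against hindbrain and cord, fitted to tissue means, they measure the spread between tissues. In bulk tissue, fewer cells of a type cannot be told apart from less RNA per cell. Arrays were alike in brightness, with 14.1% to 25.9% of values at the floor. Defining markers were high in their own tissues: summed photoreceptor markers lay at 15050 to 20720 on the retina arrays and at most at 125 elsewhere, and summed heart markers at 23440 to 35300 on the heart arrays and at most at 352 elsewhere.

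Within families the widest swings over tissues belonged to a few members. In the HSP90 family, the brighter set of Hsp90aa1, the stress-inducible cytosolic form, averaged 3313 over tissues, with tissue means between 434 in muscle and 6214 in testes, while its dimmer set averaged 39.8 and followed other tissues (r = 0.12 over 34 tissue means). Hsp90b1, the HSP90 of the endoplasmic reticulum, had tissue means between 455 in muscle and 2721 in choroid plexus. In the HSP70 and HSP110 group, Hspa8, the constitutive HSP70, averaged 1650, from 372 in testes to 2165 in PAG, and Hspa2 spanned 7.28 in liver to 3820 in testes.

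Among small heat shock proteins, the brighter Hspb2 set spanned 32.2 in retina to 2156 in heart, and the brighter Hspb8 set 42.9 in spleen to 2233 in heart. The only probe set for Hspb1 stayed between -3.66 and 25.7 on all arrays and gives no level for that gene. In the mitochondrial chaperonin pair, the brighter Hspd1 set spanned 408 in testes to 2990 in brown adipose tissue. Of the CCT subunits, Cct7 averaged 670, from 389 in brown adipose tissue to 2283 in testes, and Cct6b spanned 9.25 in striatum to 1750 in testes.

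Among J-domain proteins, Dnaja1, a main partner of cytosolic HSP70, averaged 988, from 186 in muscle to 1439 in inferior colliculi, and Dnaja2 averaged 230. The brightest Dnajb probe set, the brighter of 2 for Dnajb6, averaged 773, and the dimmer Dnajb3 set had the widest range of its family, with a mean of 2478 in testes. The brightest of the Dnajc family was the brighter Dnajc8 set at 875, a splicing-associated protein, and Dnajc15, a mitochondrial J protein, had the widest range, from 50.7 in retina to 1063 in brown adipose tissue. In all, 72 member probe sets passed the filter on dim values in the fit of all tissues, 69 in the body fit and 67 in the neural fit. The 6 that passed none were the single set for Hspb1 and the dimmest sets of Dnajb13, Dnajc1, Dnajc3, Hspa4 and Hspb8, and a gene with several sets that is named alone below is given by its brightest set. Of the 69 in the body fit, 4 passed only through testes, where they had to be high: the sets of Cct6b and Dnajb8, the dimmer Dnajb3 set and the second dimmest of the 5 for Hspa4. A set that passed through only one side of a comparison had to be high there, so its difference is a description. This is said where such a set is named as called, except for some members lower in a single tissue. Any of those with values under the filter (5.73 on the log2 scale) in that tissue passed through the other tissues alone. At least 1 body tissue stood apart from the other 9 for 63 of the 69 members (81.6% of all probe sets tested), and at least 1 neural tissue from the other 23 for 32 of 67 (63.3% of all).

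**Figure D1:**
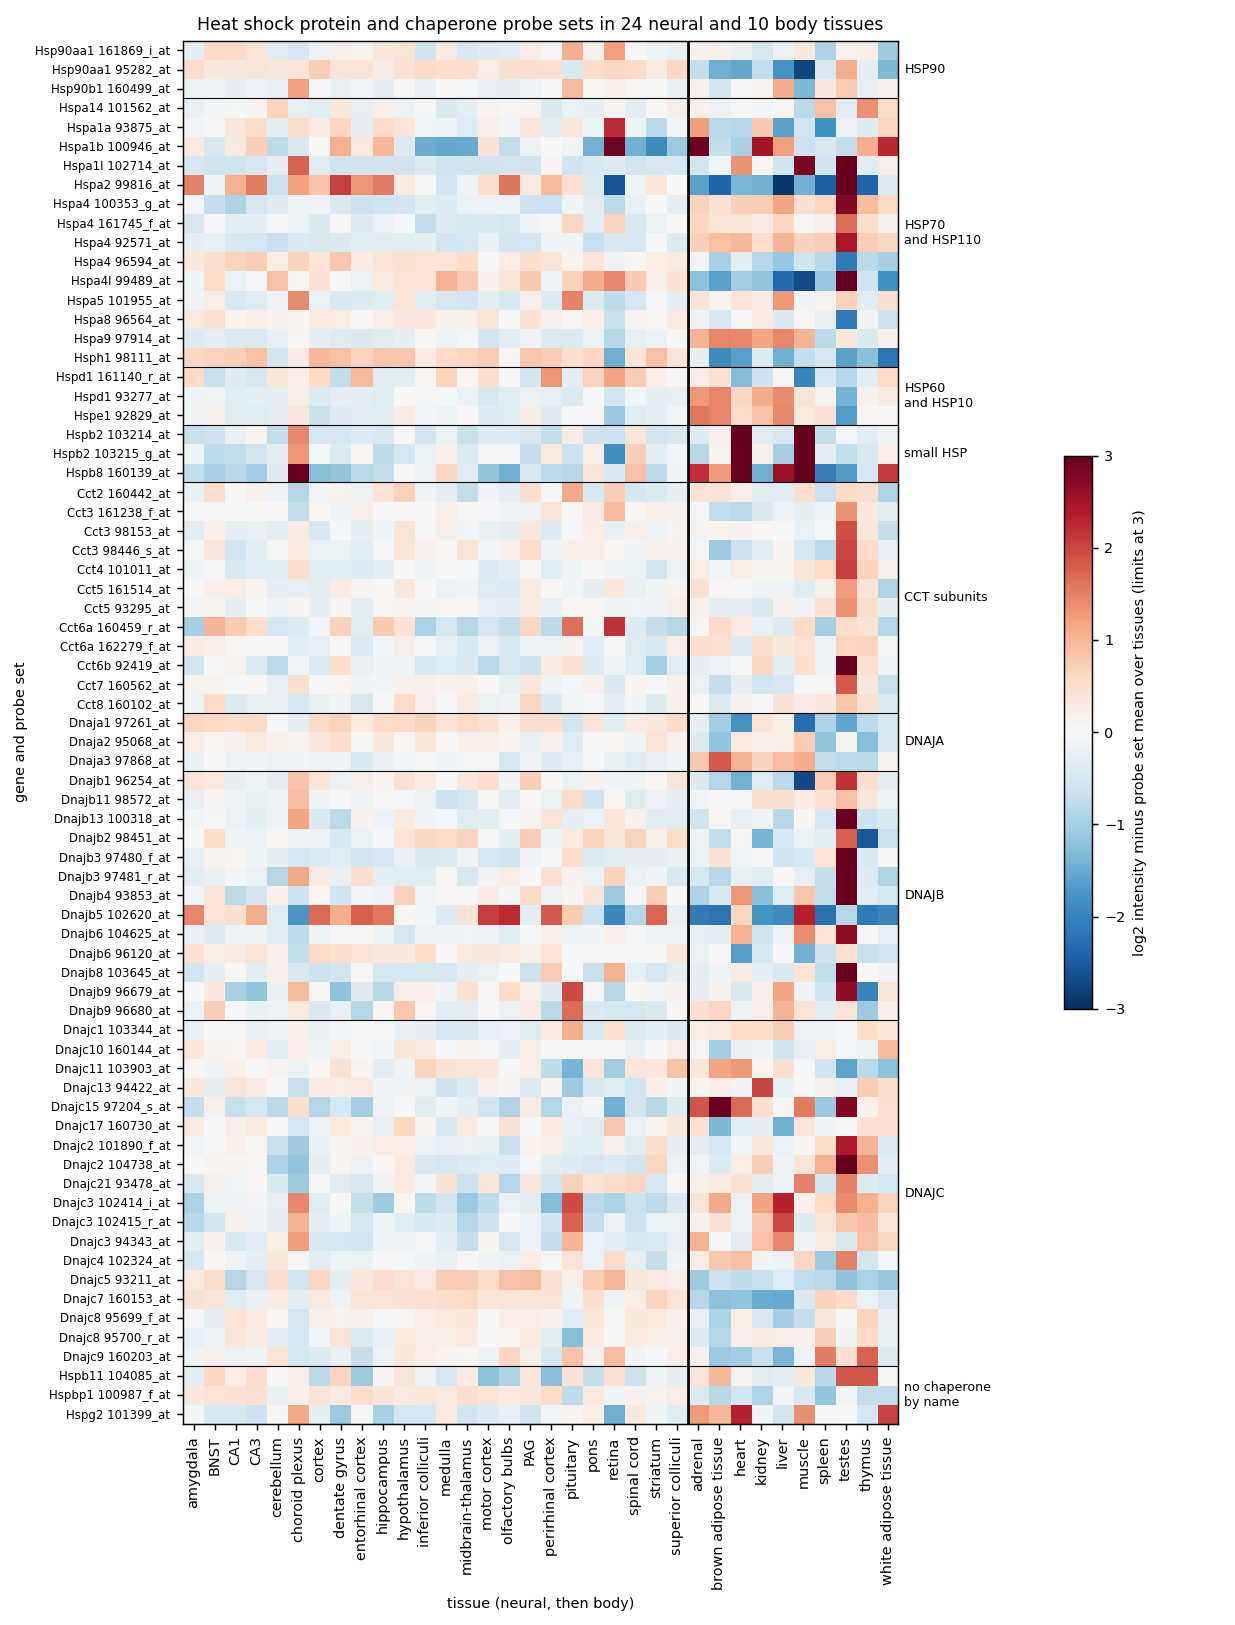
Log2 intensity of the member probe sets (rows, grouped by family) in the 34 tissues (columns, neural before body), each row centred on its own mean over tissues, with the colour scale in log2 units. The testes column stands apart for Hspa2, Hspa1l, Dnajb3, Dnajb8, Dnajb13 and Cct6b, and the heart and muscle columns for both Hspb2 rows.

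Testes held the most called members of any tissue. Of 69 tested, 32 were higher in testes than in the other 9 body tissues (20.0% of all probe sets were) and 9 were lower (25.1% of all), and 39 of these 41 kept the call under every other setting tried. The median log2 difference was 0.71 over the members and -0.21 over all probe sets tested. Without the 10 sets that passed the filter only in testes or only outside them, 28 of 59 were higher and 7 lower. Leaving out the members listed as testis-specific, 25 of 62 were higher and 9 lower, with a median of 0.57. Summed spermatid markers (5 genes) lay at 27860 to 49710 on the testes arrays and at most at 1859 elsewhere (kidney), and spermatocyte markers (5 genes) at 8784 to 11620 on testes arrays and at most at 222 elsewhere; their part in the member values was not tested.

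The testis-specific members are shown apart. The list names 9 genes from general knowledge, of which 6 had a probe set (8 in all), and all 8 but the second Dnajb13 set were tested. Hspa2, the HSP70 that spermatocytes need to complete meiosis, read 3942, 4010, 3473, 3068 and 4609 on the 5 testes arrays, against a lowest, median and highest of 0.4, 22.2 and 93.1 on the 45 other body arrays. The groups did not overlap, and the difference was 7.36 ± 0.18 (adjusted p = 9.66e-33), with 7 of the 45 others at the floor. Outside the testes its highest tissue mean was 346, in dentate gyrus. Hspa1l, an HSP70 of spermatids, read 2543, 2807, 3049, 1922 and 3349 in testes, against -8.55, 10.0 and 138 (lowest, median, highest) in the other tissues, and differed by 7.16 ± 0.26 (adjusted p = 7.24e-27), with 23 of the others at the floor.

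The J-domain proteins of the list followed the same pattern. Dnajb3 read 2857, 2663, 2039, 2065 and 2769 in testes with its dimmer set, against -4.08, 13.7 and 45.2 elsewhere (lowest, median, highest), a difference of 7.38 ± 0.24. Its brighter set read 2944, 2845, 2870, 1904 and 3111 in testes, against 28.3, 56.8 and 105, and differed by 5.63 ± 0.17. Both sets placed every testes array above every other body array. Dnajb8, known as a suppressor of protein aggregation, read 2252, 2325, 2014, 1109 and 1923 in testes, against 4.39, 13.3 and 53.4, and differed by 6.87 ± 0.29. Dnajb13, a component of the radial spokes of sperm tails and cilia, read 2882, 2648, 3906, 1879 and 2589 in testes with its brighter set, against 33.95, 59.3 and 143, a difference of 5.40 ± 0.20. The B6 array was the lowest of the 5 testes arrays for Hspa2, Hspa1l, the brighter Dnajb3 set, Dnajb8 and Dnajb13, though not for the dimmer Dnajb3 set. This was not particular to the listed members. The same array was lowest for Cct7, Hspa4l, Hsp90aa1 and Dnajb1, though not for Dnajb4, and highest for Hspd1, Hspe1 and Hspa8.

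Like the dimmer Dnajb3 set and Dnajb8, Cct6b passed the filter through testes alone. Cct6b, the germ-cell version of chaperonin subunit 6, read 1829, 1804, 1794, 1411 and 1914 in testes, against 5.72, 21.6 and 53.8 elsewhere (lowest, median, highest), and differed by 6.33 ± 0.25. Its ubiquitous relative Cct6a differed by 0.40 and was not called. The size of these differences depends on where the floor is set: over the alternatives they ran from 6.72 to 7.50 for Hspa2, from 6.09 to 7.75 for Hspa1l, from 6.20 to 7.79 for the dimmer Dnajb3 set, from 5.80 to 7.06 for Dnajb8 and from 5.66 to 6.43 for Cct6b, and every one stayed called.

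**Figure D2:**
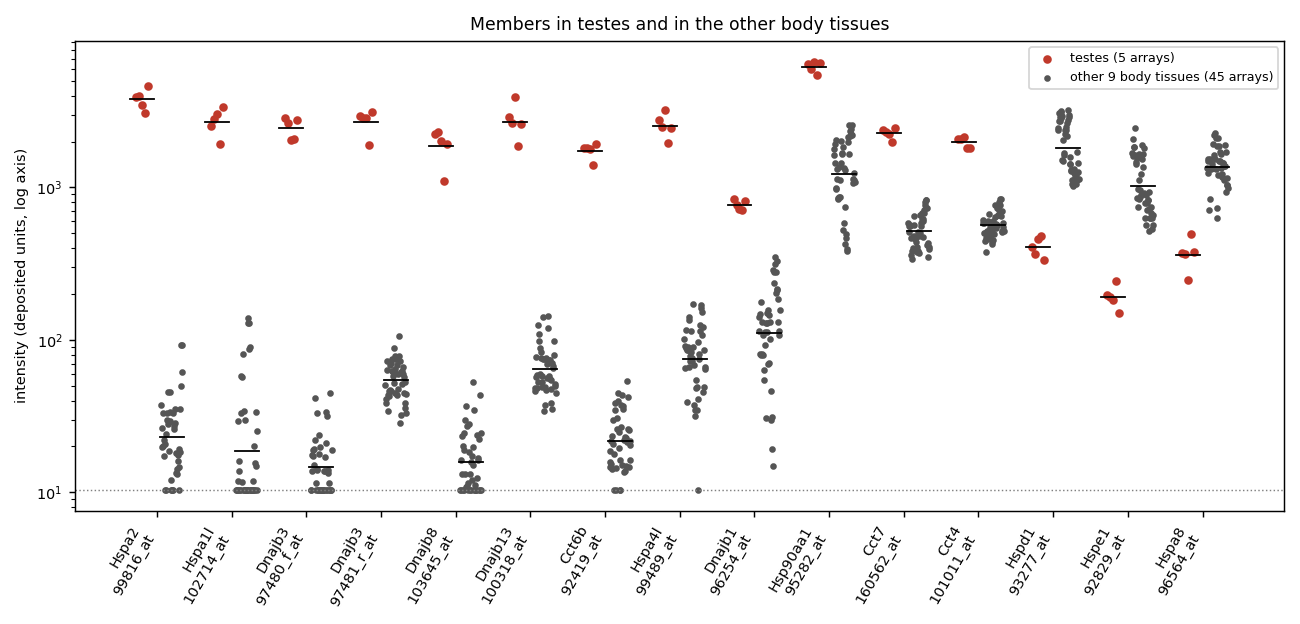
Intensity on a log axis of 15 member probe sets on each body array, with the 5 testes arrays (red) left of the other 45 (grey), values under the floor drawn at 10.4 (dotted line) and bars at the mean of the log values. The testes arrays lie above all other body arrays for Hspa2, Hspa1l, both Dnajb3 sets, Dnajb8, Dnajb13, Cct6b, Hspa4l, Dnajb1, Hsp90aa1, Cct7 and Cct4, and below all others for Hspd1, Hspe1 and Hspa8.

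Beyond that list, 4 of the 7 other subunit genes of the cytosolic chaperonin that were tested were higher in testes. Without Cct6b, 7 of 10 CCT probe sets were higher, none was lower, and the median difference was 1.497. Cct7 read 2387, 2316, 2243, 1996 and 2471 on the testes arrays, against 339, 499 and 832 elsewhere (lowest, median, highest), and differed by 2.14 ± 0.08 (adjusted p = 3.16e-26) with no overlap. Cct4 averaged 1982 in testes and 578 elsewhere (1.80 ± 0.08), the brighter Cct5 set 1640 in testes and 657 elsewhere (1.36 ± 0.07), and the 3 sets of Cct3 differed by 1.63 to 2.33. Cct8 (0.75, adjusted p = 7.68e-09) and Cct2 (0.57) differed in the same direction by less than the called size. Tcp1, the remaining subunit of the ring, which the symbol rule leaves out, differed by 2.83 ± 0.11 (adjusted p = 3.85e-25). Over tissue means, Cct7 and Cct4 correlated at r = 0.64 in all 34 tissues, 0.11 without testes and 0.65 in the neural tissues alone, and Cct7 and Cct5 at 0.81, 0.56 and 0.64 over the same sets.

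Several general chaperones were also higher in testes. Hspa4l, an HSP110 protein, read 2786, 2501, 3218, 1947 and 2453 there, against 8.71, 80.4 and 173 elsewhere (lowest, median, highest), a difference of 5.09 ± 0.22 (adjusted p = 5.35e-24). The brighter set of Hsp90aa1 read 6457, 5951, 6642, 5492 and 6528 in testes, against 384, 1318 and 2584, and differed by 2.34 ± 0.12. Neither overlapped. Dnajb1, the inducible HSP40, read 838, 766, 719, 713 and 821 in testes, against 14.9, 129 and 352 (2.79 ± 0.19), and Dnajb4 read 574, 563, 1079, 688 and 1598 in testes, against a highest value of 271 elsewhere (3.71 ± 0.20). In the Dnajb family, leaving out the 4 testis-listed sets, 6 of 9 probe sets were higher, with a median of 2.52, and none was lower. In the Dnajc family 6 of 17 were higher, among them both sets of the ribosome-bound Dnajc2 (2.71 and 2.36), Dnajc15 (1.88) and Dnajc21 (1.45), and 1 was lower.

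The mitochondrial chaperonin and the constitutive HSP70 went the other way. Hspe1, the HSP10 lid of the chamber, read 196, 192, 182, 243 and 150 in testes, against 516, 894 and 2448 elsewhere (lowest, median, highest), a difference of -2.42 ± 0.11 (adjusted p = 4.58e-23). Hspd1, the HSP60 barrel, read 406, 366, 457, 480 and 332 in testes, against 1025, 1683 and 3229, and differed by -2.18 ± 0.07 (adjusted p = 4.64e-28). These sets did not overlap between testes and the others, while the dimmer Hspd1 set differed by -0.46 ± 0.30 and was not called. Hspa8 read 373, 367, 247, 497 and 375 in testes, against 634, 1380 and 2290, and differed by -1.92 ± 0.15, again with no overlap. Hspb8 was lower by 2.95 on the log2 scale, Dnajc11 by 1.65, Hspa1b by 1.51, the brighter Hspb2 set by 1.43 and Dnaja3 by 1.34. All of these overlapped with other body arrays, and except for Dnajc11 another body tissue had a lower mean. The brighter Hspb2 set averaged 72.1 in testes, against tissue means of 56.5 to 2156 elsewhere, and Dnaja3 averaged 212, against 211 to 1318. Dnajc11 and Hspa1b passed the filter only through tissues other than testes, and the Dnajc11 call did not hold at a 40th-percentile floor. Of 23 tested pathway genes that are no members, 7 were higher in testes and 5 lower.

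Striated muscle was marked by small heat shock proteins. Of 69 members tested, 9 were higher in heart and muscle than in the other 8 body tissues (12.3% of all probe sets) and 10 were lower (9.71% of all), with a median of -0.23 over the members and -0.04 over all. Without the 10 sets that passed the filter on only one of these sides, 7 of 59 were higher and 6 lower, and both small heat shock sets among them, those of Hspb2 and Hspb8, were higher. Hspb2, first described as a binding partner of the myotonic dystrophy kinase, read 1823, 2579, 2135, 2047 and 2196 in heart and 2502, 1360, 1899, 2076 and 2517 in muscle with its brighter set, against 26.8, 86.6 and 210 elsewhere (lowest, median, highest). The difference was 4.58 ± 0.17 (adjusted p = 1.46e-25) with no overlap. The dimmer set, which passed the filter through heart and muscle alone (tissue means of at most 21.7 elsewhere), differed by 5.34 ± 0.17. Hspb8, which works with the co-chaperone Bag3 in clearing damaged muscle proteins, read 2757, 2412, 1447, 2078 and 2473 in heart and 2265, 1612, 2168, 2189 and 1987 in muscle, against 34.3, 194 and 1376, and differed by 3.28 ± 0.13 (adjusted p = 7.71e-25) with no overlap.

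Other members higher in heart and muscle were the J-domain proteins Dnajb5, Dnajb4 and Dnaja2 and the dimmer set of Dnajb6, the HSP70 Hspa1l, and Hspg2, a chaperone by name only. Dnajb5 read 124, 81.4, 123, 34.4 and 156 in heart and 311, 194, 242, 333 and 469 in muscle, against -24.4, 13.8 and 58.3 elsewhere (lowest, median, highest), and differed by 3.39 ± 0.21. Dnajb5 passed the filter through heart and muscle alone, with means of at most 37.6 in the other tissues; 15 of the 40 other arrays were at the floor and 1 heart array fell within their range. Hspa1l, so bright in testes, had means of 48.2 in heart and 115 in muscle and differed by 1.41 ± 0.19. Hspg2 differed by 1.49, Dnajb4 by 1.22 and Dnaja2 by 1.02. Of the pathway genes that are no members, 5 of 23 tested were higher (0 lower): Cryab (4.05 ± 0.26), a small heat shock protein of lens and muscle, Bag3 (2.33 ± 0.10), Serpinh1 (1.41), Hsf4 and Bag2.

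The members lower in heart and muscle included inducible and general cytosolic chaperones. Dnajb1 had a lowest, median and highest array of 14.9, 38.9 and 113 in heart and muscle, against 69.3, 149 and 838 elsewhere, a difference of -2.14 ± 0.14. Hspa1b, which passed the filter only through the other tissues, differed by -1.80 ± 0.25, Dnaja1 by -1.48 ± 0.09 and Hsp90aa1 by -1.43 ± 0.09. The dimmer Hspd1 set, which also passed only through the other tissues, differed by -1.51 while the brighter one was not called, and the brighter Dnajb6 set differed by -1.29 while the dimmer one differed by 1.03, so no direction is given for either gene. The 11 CCT probe sets tested differed by -0.60 to 0.40 between heart with muscle and the rest, all short of the called size.

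**Figure D3:**
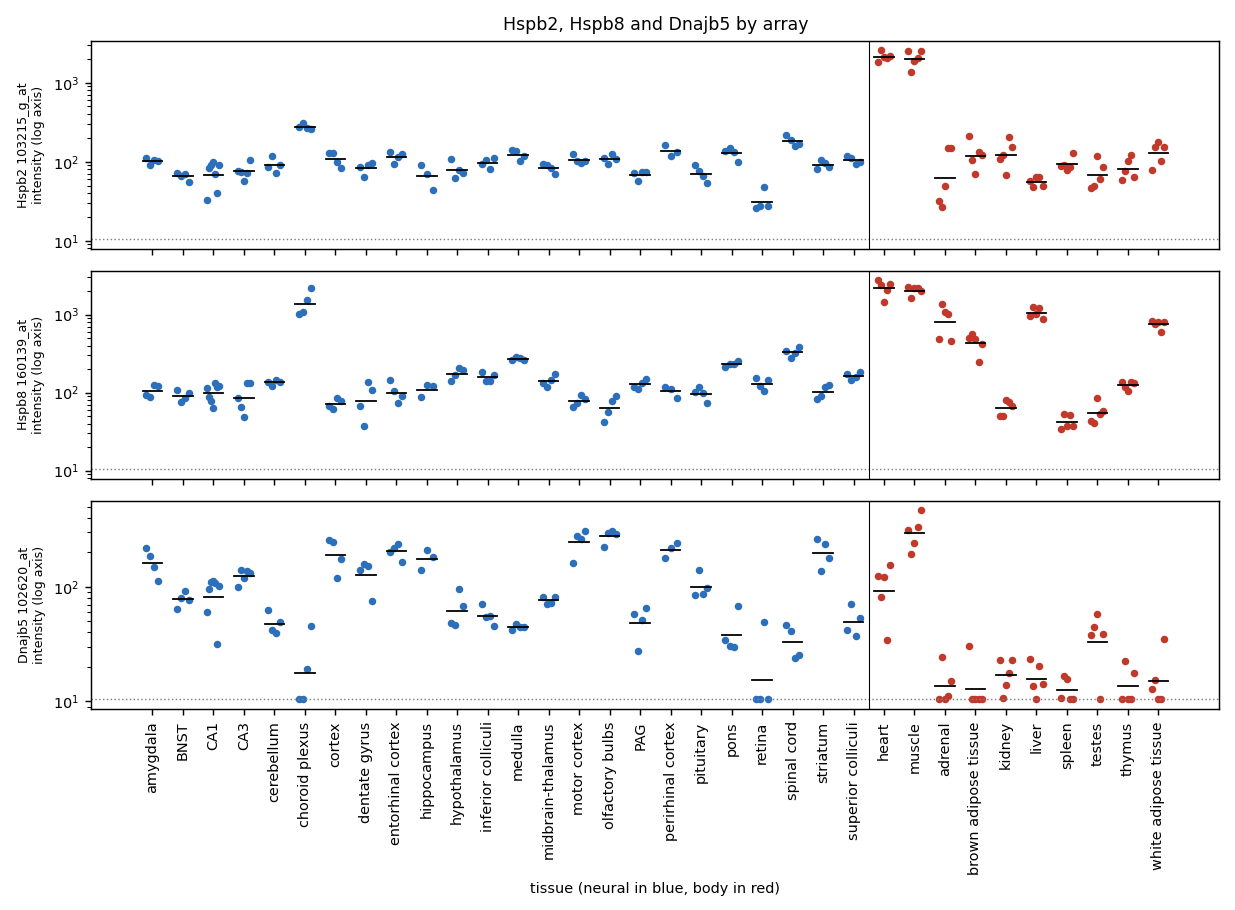
Intensity on a log axis of Hspb2 (brighter set), Hspb8 (brighter set) and Dnajb5 on each array, by tissue, with neural tissues in blue and body tissues in red, heart and muscle left of the other 8 body tissues, values under the floor drawn at 10.4 (dotted line) and bars at the mean of the log values. The heart and muscle arrays lie above all other body arrays for Hspb2 and Hspb8, and 1 heart array lies within their range for Dnajb5.

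Between the 2 striated tissues, 5 members were higher in heart than in muscle (8.00% of all probe sets) and 3 were lower (8.43% of all), with medians of -0.04 over the members and -0.01 over all. Hspa4l read 135, 142, 72.4, 78.6 and 114 in heart, against 54.9, 34.8, 49.3, 8.71 and 41.2 in muscle, and differed by 1.65 ± 0.29 (adjusted p = 1.24e-05). Hsp90b1 read 1072, 1152, 1191, 1096 and 1100 in heart, against 483, 480, 488, 425 and 402 in muscle, and differed by 1.30 ± 0.10 (adjusted p = 6.08e-15). Neither overlapped. Hsp90aa1 differed by 1.20 ± 0.16, Dnajc11 by 1.36 ± 0.33 and Dnajb1 by 1.30 ± 0.25 in the same direction. Dnajb5 (-1.69 ± 0.38, adjusted p = 0.000344), Hspa1l (-1.49 ± 0.34) and Dnajc21 (-1.07 ± 0.20) were lower in heart; the Dnajc21 call was lost without the C3H muscle array.

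Hsph1, Hsp90aa1 and the synaptic Dnajc5 were among the members higher in neural than in body tissues. With tissues as the units, 8 of 72 members were higher in neural tissues (14.1% of all probe sets) and 11 were lower (13.6% of all), and the median was -0.24 over members and -0.07 over all. The neural units included hippocampus beside its own subfields and cortex beside motor cortex. They were thus not independent, and SEs and adjusted p-values may be too small. Hsph1, the main HSP110, averaged 1362 ± 352 over the 24 neural tissues and 454 ± 208 over the 10 body tissues (SD), and differed by 1.56 ± 0.21 (adjusted p = 1.77e-07). Hsp90aa1 averaged 3913 ± 518 in neural tissues and 1872 ± 1638 in body tissues, a difference of 1.32 ± 0.21 (adjusted p = 3.09e-06) in spite of its level in testes. Dnaja1 averaged 1161 in neural tissues and 573 in body tissues (1.12 ± 0.20), a call lost without muscle. Single arrays of the 2 groups overlapped for all 19 called members.

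Dnajc5, the cysteine string protein that guards synaptic vesicle fusion, averaged 361 ± 101 in neural tissues and 156 ± 28.0 in body tissues and differed by 1.07 ± 0.16 (adjusted p = 1.05e-06). Hspa4l had a median array of 282 in neural tissues and 85.5 in body tissues and differed by 1.28 ± 0.36. Dnajb5 had a median array of 83.6 in neural tissues and 16.1 in body tissues (1.81 ± 0.46, adjusted p = 0.00133), and Hspa2 110 in neural tissues and 26.3 in body tissues (1.57 ± 0.56, adjusted p = 0.0174). Neither of these calls held at a 40th-percentile floor. Each of the pair was also bright in a body tissue, Dnajb5 in muscle and Hspa2 in testes.

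On the lower side, Dnajc15 averaged 102 ± 31.5 in neural tissues and 407 ± 342 in body tissues (-1.52 ± 0.29, adjusted p = 3.69e-05). Hspb8 (-1.30 ± 0.51), the dimmer Hspb2 set (-1.18 ± 0.46), Hspa1l (-1.29 ± 0.50), Hspa1b (-1.08 ± 0.44), Hspg2 (-1.13 ± 0.26) and Cct6b (-1.01 ± 0.41) were lower too. Hspa1l was at the floor on 101 of 148 arrays. Its median array was 2.79 in neural and 11.9 in body tissues, with the highest tissue mean, 2734, in testes. The dimmer Hspb2 set passed the filter only through heart and muscle and Cct6b only through testes, so both differences rest on those tissues; neural tissue means of Cct6b reached 31.2 and its body means other than testes 33.2. The Hspb8 call was lost when adrenal, heart, liver, muscle or white adipose tissue was left out, and 10 of the 19 calls were lost under at least 1 alternative. The probe sets of Hspa4, an HSP110 protein, disagreed. The brightest of 5 averaged 826 ± 131 in neural tissues and 367 ± 121 in body tissues (1.22 ± 0.13, adjusted p = 2.27e-09), while the third brightest averaged 86.7 ± 10.4 in neural tissues and 237 ± 136 in body tissues (-1.25 ± 0.13, adjusted p = 6.62e-10) and the second brightest differed by -1.28 ± 0.16. In testes the disagreement had the opposite sign, with the brightest lower by 1.37 on the log2 scale and the third brightest and second brightest higher (1.67 and 2.08). The second dimmest was higher by 1.33 but passed the body filter through testes alone, so its difference is a description. Over 34 tissue means the third brightest correlated with the brightest at r = -0.91 (-0.21 in neural and -0.78 in body tissues) and with the second brightest at r = 0.93 (0.11 in neural and 0.94 in body tissues), so no direction is given for the gene. Among 25 pathway genes tested, 1 was higher in neural tissues (Pfdn2) and 5 were lower (St13, Bag3, Fkbp5, Grpel1 and Serpinh1).

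Within the brain, 3 members were higher in the telencephalon than in the hindbrain and cord (3.48% of all probe sets) and 1 was lower (3.20% of all), of 65 tested, with medians of -0.03 over members and -0.02 over all. Tissue means were the units, and some tissues overlap: hippocampus holds CA1, CA3 and dentate gyrus, and cortex holds motor cortex. Such units are not independent, so SEs and adjusted p-values of this comparison may be too small. Dnajb5, a J protein of the HSP40 type, had a lowest, median and highest array of 31.6, 160 and 311 in the telencephalon, against 23.8, 42.0 and 67.6 in hindbrain and cord, and differed by 2.03 ± 0.29. Hspa2 had 63.7, 184.6 and 453 in the telencephalon, against 36.0, 62.3 and 78.0, and differed by 1.53 ± 0.30 (adjusted p = 0.00149). The ranges of both genes overlapped, that of Dnajb5 over most of the hindbrain and cord values. Dnajb5 and Hspa1b passed the filter of this comparison through the telencephalon alone, with hindbrain and cord means of at most 48.4 and 37.1. Hspa1b differed by 1.37 ± 0.39, a call lost without medulla, pons or spinal cord and at a 40th-percentile floor.

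Hspb8 was the member lower in the telencephalon, at 36.9, 89.5 and 143 (lowest, median, highest array), against 121, 260 and 382 in hindbrain and cord (-1.38 ± 0.19, adjusted p = 0.000102). Summed oligodendrocyte markers (3 genes) ran from 1029 to 12330 in the telencephalon and from 4673 to 18010 in hindbrain and cord, and their part in the Hspb8 values was not tested. Among single neural tissues set against the other 23, Dnajb5 was higher in olfactory bulbs (1.78), motor cortex (1.72), entorhinal cortex (1.44), perirhinal cortex (1.44), striatum (1.28), cortex (1.23) and hippocampus (1.09), and lower in spinal cord (-1.43) and pons (-1.21). In spinal cord and pons Dnajb5 lay under the filter, so it passed through other neural tissues alone. Hspa2 was higher in dentate gyrus (1.67 ± 0.15), olfactory bulbs (1.19), CA3 (1.15) and hippocampus (1.09) and lower in cerebellum (-1.14). Hspb8 was higher in spinal cord (1.37). Dnajc5 was lower in CA1 (-1.17 ± 0.11), a call lost under at least 1 alternative, and Hsph1 in cerebellum (-1.11).

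Hspa5 and Dnajc3, which work in the endoplasmic reticulum, were higher in choroid plexus, pituitary and liver, with the limits given beside their values. These genes were picked for description after their values were seen. Over all families, 13 of 67 members were higher and 2 lower in choroid plexus (34.2% of all probe sets were called), 10 higher and 3 lower in pituitary (26.8% of all), and 9 of 69 higher and 13 lower in liver (33.4% of all). The members' shares of calls in either direction, 22.4%, 19.4% and 31.9% in the same order, were thus no higher than those of all probe sets.

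Hspa5, known as BiP and the HSP70 of the endoplasmic reticulum, read 2000, 2302, 2164 and 3658 in choroid plexus, against tissue means of 538 to 2574 in the other 23 neural tissues, of which pituitary was the highest, and differed by 1.61 ± 0.10 (adjusted p = 5.44e-26). In pituitary Hspa5 read 2846, 2881, 2206 and 2365 and differed by 1.67 ± 0.10 (adjusted p = 1.09e-26). In liver Hspa5 read 2033, 2749, 1837, 2031 and 2968 and lay above all other body arrays, with a difference of 1.09 ± 0.10 that was no longer called under quantile normalisation or without the 129 liver array. Hsp90b1 read 2534, 2899, 2321 and 3129 in choroid plexus (1.28 ± 0.06) and 2350, 2706, 2223, 2490 and 2858 in liver (1.20 ± 0.07); both calls were lost under quantile normalisation. Over 34 tissue means Hspa5 correlated with Hsp90b1 at r = 0.70 (0.80 in neural and 0.79 in body tissues) and with Dnajb11, its J-domain partner, at r = 0.72 (0.80 in neural and 0.21 in body tissues).

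Dnajc3, a J protein that is also known as an inhibitor of the kinase PERK, was higher with all 3 tested probe sets in choroid plexus (1.90, 1.52 and 1.31), in pituitary (2.43, 2.06 and 1.25) and in liver (1.62, 1.63 and 1.14). Dnajb9, which delivers misfolded proteins for degradation, read 417, 482, 403 and 448 with its dimmer set in pituitary (2.11 ± 0.15) and 601, 711, 538 and 492 with its brighter set (1.82). In testes the Dnajb9 sets disagreed, with the dimmer one higher by 2.81 ± 0.20 and the brighter one not called (0.26, adjusted p = 0.126). Among 10 other genes of folding and stress in the endoplasmic reticulum that were tested, none of them members, 4 were higher in choroid plexus, 5 in pituitary and 5 in liver. The disulfide isomerase Pdia4 differed by 2.78 in choroid plexus, 1.53 in pituitary and 1.88 in liver, and Ddit3 was lower in liver.

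The promoters of Hspa5, Hsp90b1 and Dnajc3 are shown because they share a known response element. Of 56 member genes, 48 had a promoter in the RefSeq table (build GRCm38.p6), given as 250 bases before to 50 after the start. The endoplasmic reticulum stress element, CCAAT and CCACG with 9 bases of any kind between them, was looked for on both strands and occurred in 0.119% of 32851 promoters and in 3 member genes, which are these. Matches are in capitals; they begin 65 bases before the start in Hspa5, at chr2:34771840-34772139 on the plus strand, 212 and 107 bases before it in Hsp90b1, at chr10:86705395-86705694 on the minus strand, and 105 bases before it in Dnajc3, at chr14:118937682-118937981 on the plus strand. A match is a description of the letters and no evidence of binding.
Hspa5 promoter: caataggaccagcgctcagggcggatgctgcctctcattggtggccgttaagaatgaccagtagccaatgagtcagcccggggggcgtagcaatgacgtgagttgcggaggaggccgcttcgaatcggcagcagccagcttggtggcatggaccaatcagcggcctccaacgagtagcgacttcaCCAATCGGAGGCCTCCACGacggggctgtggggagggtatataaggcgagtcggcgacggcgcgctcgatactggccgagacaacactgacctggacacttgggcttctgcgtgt
Hsp90b1 promoter: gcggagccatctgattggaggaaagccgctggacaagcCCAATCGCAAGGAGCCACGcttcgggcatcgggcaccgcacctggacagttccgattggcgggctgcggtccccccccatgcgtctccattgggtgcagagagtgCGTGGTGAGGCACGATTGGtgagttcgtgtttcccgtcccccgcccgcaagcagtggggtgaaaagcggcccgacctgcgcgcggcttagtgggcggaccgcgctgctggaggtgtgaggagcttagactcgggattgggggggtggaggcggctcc
Dnajc3 promoter: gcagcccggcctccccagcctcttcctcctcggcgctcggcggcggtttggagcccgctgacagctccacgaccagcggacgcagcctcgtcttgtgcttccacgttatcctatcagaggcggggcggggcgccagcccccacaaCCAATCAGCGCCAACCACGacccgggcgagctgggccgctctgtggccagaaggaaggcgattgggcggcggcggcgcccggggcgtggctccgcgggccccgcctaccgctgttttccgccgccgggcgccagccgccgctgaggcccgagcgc

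Choroid plexus also had the largest neural level of Hspb8, which read 1010, 1082, 1554 and 2157 there, against tissue means of 66.7 to 332 in the other neural tissues, and differed by 3.53 ± 0.14 (adjusted p = 3.77e-38). The brighter Hspb2 set read 278, 308, 271 and 260 in choroid plexus and differed by 1.62 ± 0.15. Of the testis-listed genes, Hspa1l read 52.4, 47.0, 61.6 and 54.7 in choroid plexus, against tissue means of -7.68 to 13.5 (2.28 ± 0.12), but passed the neural filter through choroid plexus alone and was not called at a 40th-percentile floor, and Dnajb13, the axonemal member, differed by 1.32. Dnajb5 was lower (-2.37). Summed choroid plexus epithelium markers (3 genes) lay at 27730 to 28580 there and at most at 4445 elsewhere, and smooth muscle markers (4 genes) at 69.6 to 172 in choroid plexus and at most at 669.5 in any other neural tissue.

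In brown adipose tissue the members that were higher were Dnajc15, Dnaja3, Hspd1, Hspe1 and Dnajc11, all known as mitochondrial proteins. Of 69 members, these 5 were higher and 10 were lower, a share of 21.7% called in either direction, against 21.2% of all probe sets. Dnajc15 read 926, 1279, 1055, 796 and 1259 in brown adipose tissue (2.11 ± 0.18). Dnaja3, the partner of mitochondrial HSP70, read 1518, 1313, 1206, 1420 and 1134 and lay above all other body arrays (1.58 ± 0.08, adjusted p = 3.16e-21). Hspd1 read 2888, 2840, 3110, 3184 and 2928 (1.03 ± 0.07) and Hspe1 1631, 2448, 1461, 1415 and 1551 (1.06 ± 0.11); both calls were lost under quantile normalisation, and that of Hspe1 also without the AJ array. Dnajc11 differed by 1.42. The highest tissue mean was that of adrenal for Hspe1 and of heart for Dnajc11. Hspa9, the mitochondrial HSP70 itself, averaged 2027 in brown adipose tissue and was not called. Skeletal muscle markers ran from 210 to 10700 on the brown adipose tissue arrays, and their part in these values was not tested.

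Hspd1 and Hspe1 were the most alike pair of different genes examined over all 34 tissues, though not within neural or within body tissues alone. Over 34 tissue means their log2 levels correlated at r = 0.95, and at 0.94 without testes, and both were lowest in testes and highest in adrenal, brown adipose tissue and liver. The points share arrays, so this is a description without a test. The r of Hspd1 and Hspe1 was 0.779 in neural and 0.979 in body tissues. In neural tissues it was higher for Hspa1a with Hspa1b (0.824) and for Hspa5 with Dnajb11 (0.802) and Hsp90b1 (0.801). In body tissues it was higher for Cct7 with Cct4 (0.985). Dnaja3 and Hspa9 correlated at r = 0.86 (0.35 in neural and 0.89 in body tissues), and Hspd1 and Hspa9 at 0.77. In adrenal Hspe1 was called (1.19).

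**Figure D4:**
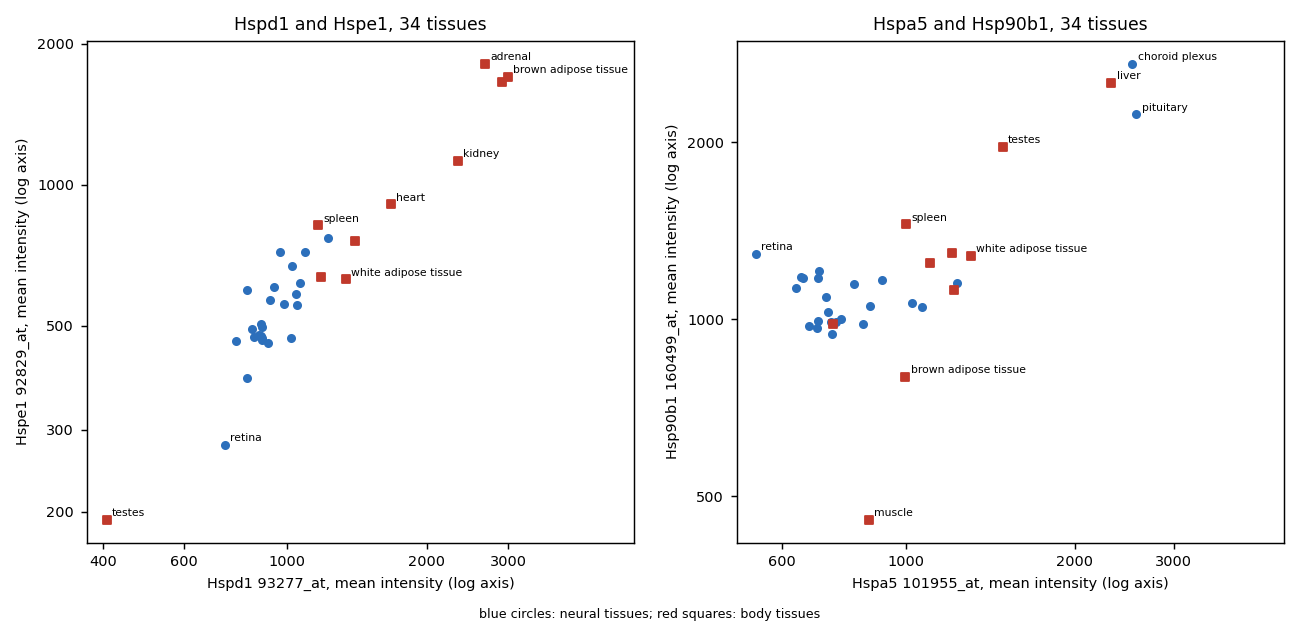
Mean intensity per tissue on log axes for Hspe1 against Hspd1 (left) and Hsp90b1 against Hspa5 (right), 1 point per tissue, neural tissues as blue circles and body tissues as red squares. The points for Hspd1 and Hspe1 run along a line from testes to brown adipose tissue, and choroid plexus, liver and pituitary stand at the upper right for Hspa5 and Hsp90b1.

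Hspd1 and Hspe1 lie head to head, and their shared upstream sequence is shown because their levels ran together. The Hspe1 window, chr1:55087898-55088197 on the plus strand, shares 285 bases with that of Hspd1, chr1:55087883-55088182 on the minus strand, and the starts are 216 bases apart. A heat shock element, looked for as GAA, TTC and GAA with 2 bases of any kind between neighbours and on both strands, is in capitals 89 bases before the Hspe1 start. It occurred in 0.603% of 32851 promoters and in 4 of the 48 member genes matched (Dnajb6, Hspd1, Hspe1 and Hsph1).
Hspe1 promoter: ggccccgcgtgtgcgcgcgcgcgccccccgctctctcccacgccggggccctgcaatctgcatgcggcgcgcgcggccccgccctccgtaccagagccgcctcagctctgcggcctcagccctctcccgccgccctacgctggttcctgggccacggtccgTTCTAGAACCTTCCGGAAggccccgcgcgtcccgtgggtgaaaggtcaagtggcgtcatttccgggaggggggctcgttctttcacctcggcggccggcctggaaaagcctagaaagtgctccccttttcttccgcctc

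Hspa1b, one of a stress-inducible pair with Hspa1a, had a residual SD of 0.64 on the log2 scale after tissue and strain. That was rank 2 of the 78 member sets, while Hspa1a had 0.36 and rank 24. The sets of rank 1 and 3, the dimmer ones of Dnajb13 and Cct6a, averaged only 21.8 and 24.5 over tissues. Hspa1b averaged 101, with a lowest tissue mean of 15.9 in striatum, and the part of low intensity in its rank was not tested. In adrenal, Hspa1b read 769, 340, 271, 186 and 1320, against a median of 54.0 on the other body arrays, and differed by 2.54 ± 0.33 (adjusted p = 3.44e-08). Hspa1a read 406, 164, 165, 138 and 677 on the same arrays (C3H, AJ, DBA, 129 and B6) and differed by 1.78 ± 0.23. Both genes were highest on the B6 array and lowest on the 129 array. Adrenal had 4 members higher and 6 lower (14.0% of all probe sets were called). The adrenal arrays also carried brown fat markers at 2882 to 3904 and fat cell markers at 2897 to 5679, whose part in these values was not tested.

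In kidney Hspa1b read 271, 239, 328, 469 and 363 and differed by 2.04 ± 0.33, with Hspa1a at 1.26; 4 members were higher there and 6 lower (21.9% of all probe sets were called). Kidney also held the highest level of Dnajc13, an endosomal J protein, at 399, 287, 355, 265 and 207, against tissue means of 61.0 to 121 elsewhere (1.91 ± 0.14). In white adipose tissue Hspa1b spread over 84.9, 496, 180, 357 and 603 (1.79), and the Hspa1a call (1.12) was lost without the B6 or the C3H array; 6 members were higher there and 6 lower (20.1% of all). In choroid plexus Hspa1b read 20.1, 22.3, 38.4 and 192, where 1 array stood apart, and was not called.

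Retina had the highest neural levels of the pair. Hspa1b read 426, 411, 426 and 488 on the 4 B6 retina arrays, against tissue means of 15.9 to 124 in the other 23 neural tissues, and differed by 3.18 ± 0.29 (adjusted p = 2.46e-16). Hspa1a read 554, 475, 463 and 511, against 62.0 to 200 (2.02 ± 0.14, adjusted p = 7.64e-23). In the same arrays the HSP110 protein Hsph1 was low, at 313, 322, 319 and 378, against 624 to 1816 (-2.07 ± 0.10), and Hspa2 read 6.01, 17.6, 14.9 and 12.2, against 53.3 to 346 (-3.32 ± 0.15, adjusted p = 7.39e-34). Hspa2 lay under the filter in retina, so it passed through other neural tissues alone. Dnajb5 was lower as well (-2.57). In all, 6 of 67 members were higher and 7 lower in retina (26.6% of all probe sets were called).

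**Figure D5:**
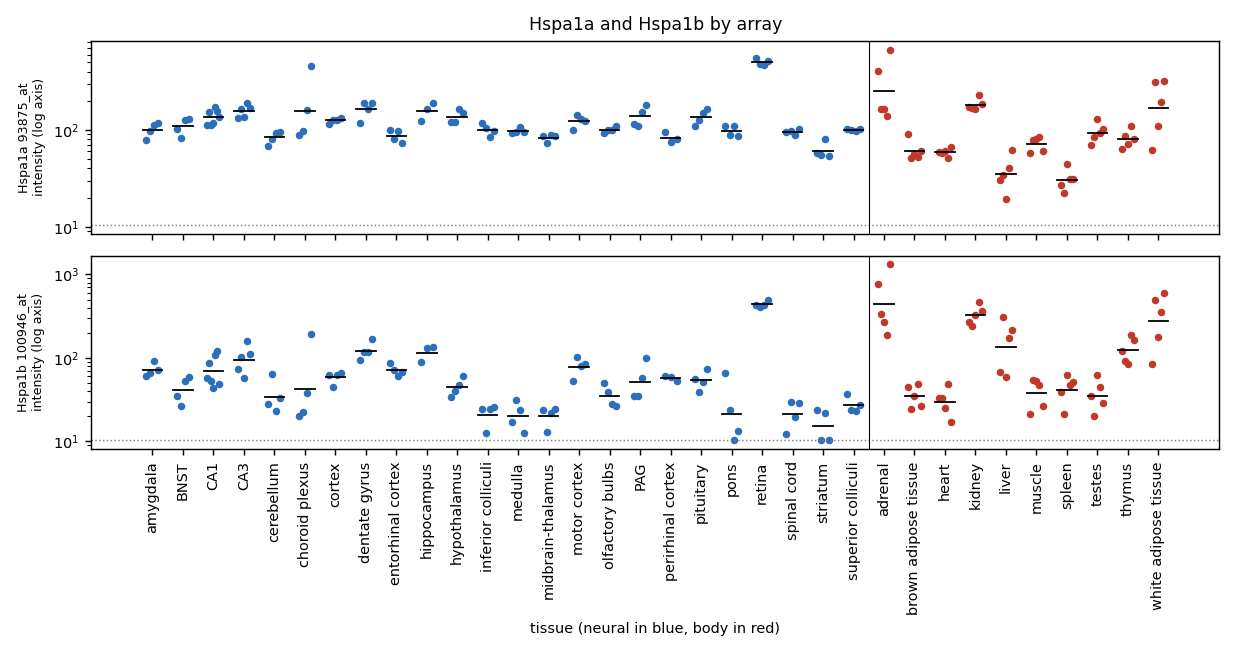
Intensity on a log axis of Hspa1a and Hspa1b on each array, by tissue, with neural tissues in blue left of body tissues in red, values under the floor drawn at 10.4 (dotted line) and bars at the mean of the log values. The 4 retina arrays lie above the other neural tissue means for both genes, and the adrenal arrays spread from 186 to 1320 for Hspa1b.

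Hspa1a and Hspa1b are neighbouring copies, and their promoters are shown for their likeness: the windows, chr17:34972107-34972406 and chr17:34959189-34959488, both on the minus strand, were identical at 296 of 300 positions. Which of the copies each probe set reads was not tested. Over 34 tissue means the pair correlated at r = 0.58 (0.82 in neural and 0.70 in body tissues). Capitals mark the core of a heat shock element, looked for as GAANNTTC, which begins 104 bases before each start and occurred in 7.86% of all promoters and in 10 member genes.
Hspa1a promoter: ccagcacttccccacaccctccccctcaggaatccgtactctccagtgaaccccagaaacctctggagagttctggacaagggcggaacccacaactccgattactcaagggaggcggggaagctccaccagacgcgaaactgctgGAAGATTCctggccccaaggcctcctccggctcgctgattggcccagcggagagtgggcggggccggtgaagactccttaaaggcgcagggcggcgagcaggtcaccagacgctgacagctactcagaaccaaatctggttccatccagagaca
Hspa1b promoter: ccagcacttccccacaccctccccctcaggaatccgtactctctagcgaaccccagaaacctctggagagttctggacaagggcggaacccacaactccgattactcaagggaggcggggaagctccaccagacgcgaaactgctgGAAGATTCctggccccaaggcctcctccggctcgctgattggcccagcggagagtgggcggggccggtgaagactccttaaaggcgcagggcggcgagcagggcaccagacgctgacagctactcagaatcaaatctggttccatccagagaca

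Thymus and spleen were set apart by Dnajc9, a J protein that is also a histone chaperone. Dnajc9 read 678, 737, 557, 616 and 497 in thymus (2.05 ± 0.15) and 494, 565, 398, 636 and 536 in spleen (1.79 ± 0.15). Summed markers of dividing cells (5 genes) ran from 2006 to 3354 in thymus and from 431 to 2741 in spleen, and their part in the Dnajc9 values was not tested. In thymus 4 members were higher and 15 lower (31.8% of all probe sets were called), with Hspb11 (1.61) and Hspa14 (1.36), a ribosome-bound HSP70, among the higher and the dimmer Dnajb9 set (-2.32) and Dnajb2 (-2.31) among the lower. In spleen 3 were higher and 13 lower (36.0% of all), with Dnajc7 (1.46) and Dnajb1 (1.23) higher and Hspb8 (-3.36), Dnajc15 (-2.44) and Hspa9 (-1.65) lower. The dimmer Dnajb9 set and Dnajb2 in thymus and Hspb8 in spleen lay under the filter there and passed through other body tissues alone.

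Between strains 129 and B6, no member was called in neural or in body tissues. The 20 neural tissues with both strains held 39 arrays of 129 and 41 of B6. There, no member of 67 passed limma's adjusted p of 0.05 with a 1.5-fold difference between 129 and B6 (2.43% of all probe sets did). An unadjusted p under 0.05 was found for 20 of these members, against 2669 of all 8092 probe sets tested. Hspa5 was slightly higher in 129 (0.26 ± 0.04, adjusted p = 6.24e-07; higher in 18 of 20 tissues), with means of 1043 in 129 and 914 in B6, and Hspb8 slightly lower (-0.40 ± 0.06, adjusted p = 6.4e-07; higher in 3 of 20 tissues), with means of 173 in 129 and 239 in B6. In body tissues none of 69 was called between 129 and B6 by limma (3.58% of all were). An unadjusted p under 0.05 was found for 10 of them, against 2018 of all 8921 probe sets tested.

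Among all 5 strains in body tissues, 6 of 69 members differed by the F test at an adjusted p under 0.05 (13.5% of all probe sets): Dnajc10, Cct2, Dnajb9 (dimmer set), Dnajc1 (brighter set), Dnajc3 (brightest set) and Hspa9. Of these 6 calls, 4 were lost under at least 1 alternative, and 3 members were called under quantile normalisation, 2 with the Gapdh ratio as covariate and 3 without the AJ thymus, AJ muscle or AJ kidney array. Dnajc10, a disulfide reductase of the endoplasmic reticulum, had a lowest, median and highest array of 61.0, 101 and 171 in AJ, against 114, 197 and 1108 in B6, and the AJ array was the lowest of the 5 strains in 10 of 10 body tissues (F test adjusted p = 2.98e-08; AJ minus B6 -1.16 ± 0.17, adjusted p = 1.6e-05). The strain difference between 129 and B6 itself differed between neural and body tissues for 10 of 72 members at an adjusted p under 0.05 (16.6% of all probe sets), 5 in each direction. The difference of 129 minus B6 was more positive in neural than in body tissues for Cct2, Dnajb11, Dnajc3 (brightest set), Hspa5 and Hspa8, and more negative for Dnajc7, both sets of Dnajc8, Hspa2 and Hspb8.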

How the data were processed

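Gene expression was measured on 150 arrays of 34 tissues. The files hold 1 linear intensity per probe set and array, as the authors deposited it. How these values were computed, scaled and background-corrected was not given in the sources used here, and 5.97% of values lie below 0. Per the labels' protocols, total RNA was extracted with TRIzol and an RNeasy kit and turned into biotin-labelled cRNA. Probe sets were named from the platform annotation: 10833 had 1 symbol, 396 several and 1193 none.

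Groups came from titles and source names. The arrays of 129 hippocampus replicate 1 and DBA perirhinal cortex replicate 2 held identical values under different labels, so both were left out. Values were raised to the 20th percentile of all (10.4) and taken to log2. A fit tested the probe sets with a strain-adjusted mean above 5.73, the median over all log2 values, in at least 1 of its tissues. Limma 3.58.1 in R 4.3.3 (lmFit, eBayes with trend) was fitted to all such probe sets with tissue and strain as terms. Strain-adjusted tissue means were fitted instead for neural against body tissues and for telencephalon against hindbrain and cord. A call needed a Benjamini-Hochberg adjusted p under 0.05 and a log2 difference of 1 (strains 1.5-fold, the F test and the interaction the adjusted p alone). The scripts were tested on simulated data. The number of arrays limits the precision.

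Alternatives were the floor at the 40th or 10th percentile, quantile normalisation, no filter, 1 probe set per gene, all 150 arrays, the 3' to 5' ratio of Gapdh (0.748 to 1.41) as a covariate, each array or tissue left out, and the animal code in the title as a block. Titles share 26 codes within a strain, but do not say that a code marks 1 animal. In the block, muscle arrays were given codes apart from those of other tissues. The consensus correlation within codes was 0.145 in neural and 0.0535 in body arrays. Members, lists and rules were chosen with earlier results of these data known. The text names up to 6 called members with the largest difference each way, every testis-listed member and the extremes of each family; other members named were picked after their values were seen. Promoters came from the RefSeq table of GRCm38.p6; 8 member genes had no entry matched.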

Additional observations from a re-analysis of the deposited data

Results flagged for a closer look

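The difference between strains 129 and B6 was not the same in neural and body tissues for 10 members, by the interaction term of limma at an adjusted p under 0.05 (16.6% of all probe sets tested passed). On the log2 scale, 129 minus B6 in neural tissues minus the same in body tissues was 0.43 for Hspa5 (neural 0.26, body -0.17), 0.39 for the brightest Dnajc3 set (neural -0.08, body -0.47), 0.39 for Cct2, 0.32 for Hspa8 and 0.32 for Dnajb11. It was -0.83 for Dnajc7 (neural -0.04, body 0.79, adjusted p = 0.00011), -0.55 for Hspb8 (neural -0.40, body 0.15), -0.41 for Hspa2, -0.40 for the dimmer Dnajc8 set and -0.24 for the brighter one. For Hspa5, 129 was higher in 18 of 20 neural and in 2 of 10 body tissues. Of these 10 calls, 5 were lost under at least 1 alternative.

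The only group of a strain and tissue with enough arrays for a check of outlying arrays was the B6 retina, with 4. Of 78 member probe sets, 4 had an array whose gap to the nearest other, as a share of the whole range, passed Dixon's critical value, where chance gives about 1 in 20. Hsph1 read 378 on replicate 4, against 313 to 322 on the others (gap 0.865 of the range). The third brightest Hspa4 set read 109 on replicate 4, against 72.8 to 76.7 (0.894). The brighter Hspb2 set read 47.4 on replicate 3, against 25.9 to 27.9 (0.907). The dimmest Dnajc3 set read 3.39 on replicate 2, against 10.2 to 10.7 (0.931), with 10.4 as the floor used in the tests. No explanation was tested.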

How the results depend on the processing

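No call on a named member changed direction under any alternative run. Under the alternatives that keep every array and tissue, counts of called members stayed within 1.5 times the reported count except in these cases: neural against body tissues gave 12 at a 40th-percentile floor (19 as reported), and the F test over 5 strains gave 3 under quantile normalisation and 2 with the Gapdh ratio as covariate (6 as reported). The next counts take all calls of members over all comparisons, whether named in the text or not. Of these 321 calls, 67 did not hold at a 40th-percentile floor and 30 were lost under quantile normalisation. With the floor at the 10th percentile 3 were lost, with all 150 arrays 2 and without the filter 1. With 1 probe set per gene 0 of 256 were lost, and with the Gapdh ratio 15 of 298. With the animal code in the title as a replicate block, 4 of 298 were lost and the counts in testes (41), heart and muscle (19) and the 5 strains (6) were as without it, with 8 for the interaction (10 as reported). Muscle arrays had block codes of their own, so any title code they share with other tissues did not enter this block. Quantile normalisation moved the median of all probe sets by 0.10 in choroid plexus and -0.13 in retina.

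Leaving out 1 array at a time gave 30 (without a B6 choroid plexus array) to 36 members called in at least 1 neural tissue, 61 to 64 in body tissues, 41 to 43 in testes, 18 to 20 in heart and muscle, 7 to 10 for heart against muscle, 8 to 14 for the interaction, 0 to 0 for 129 against B6 in neural and 0 to 1 in body tissues (1 without AJ brown adipose tissue). The F test over strains gave 3 (without AJ thymus, AJ muscle or AJ kidney) to 9 (without 129 white adipose tissue). Leaving out 1 tissue gave 15 (without muscle) to 20 for neural against body and 3 (without medulla) to 4 for telencephalon against hindbrain and cord. A lone array left in a group was assumed to vary like the others. Values near the floor limit what can be read of dim probe sets, and calls of genes with a single probe set have no second reading.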
